A study of Mus musculus with 20 samples.

Results

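Potassium channel subunits were examined in the differentiating control and HPRT knockdown lines of mouse ESD3 embryonic stem cells. They were taken as every gene whose symbol is Kcn, a family letter and a number, leaving out Kcnj10 and Kcnj16, which gave 91 entries and 90 distinct symbols of the 37561 genes present in all tables. ESD3 is a line of strain 129s2/SvPas, grown here on mouse embryonic fibroblast feeders. Both lines carried a short hairpin RNA delivered by a viral vector, against luciferase in the control and against HPRT, a purine salvage enzyme, in the knockdown. The cells were grown as spherical neural masses toward dopaminergic neurons. From day 0 on, 1 library per line was sequenced for every day up to day 4, and then for days 6 to 14 at intervals of 2 days. There was 1 line of each kind, RNAs of a time point were pooled per the methods, and no day was replicated, so p-values measure the spread over days and not over independent lines.

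Potassium channels let potassium leave the cell, which holds the resting membrane potential and ends action potentials. Voltage-gated subunits open on depolarization, calcium- and sodium-activated subunits answer to ions inside the cell, tandem-pore subunits carry the leak current, and inward rectifiers pass current near rest, some of them under the control of G proteins or ATP. Auxiliary subunits bind the pore-forming ones and change their gating and their traffic to the membrane. In midbrain dopaminergic neurons, channels of the Kcnj6, Kcnd3 and Kcnn3 subunits shape pacemaker firing.

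Each value below is a log2 difference between 2 libraries, since the tables hold no levels. A member was tested when its typical log2 normalized count, read from the rounding of the deposited values, was at least 4. This was met by 53 members, and 5 of these, among them Kcna6, Kcnc1, Kcnd3 and Kcnk2, reached 8. A further 29 members had values under the filter. The remaining 9 entries were at 0 in both columns of most tables and were set apart: Kcne1, Kcnmb3, the second entry of Kcnh8, Kcnj1, Kcnk18, Kcnk15, Kcne3, Kcna10 and Kcnk16. Kcne1, an auxiliary subunit best known from the heart, was at 0 in all 28 tables, as were Kcnmb3 and that entry of Kcnh8. The tested members were 27 voltage-gated, 8 tandem-pore, 6 inward rectifier, 6 auxiliary and 6 calcium- or sodium-activated subunits.

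The ratio of Hprt itself lay between -5.00 (day 14) and -2.53 (day 0) and was below 0 throughout the 10 days. Several marker lists did not stay level between the lines. Of all 13608 genes tested, 26.2% were higher in the knockdown and 26.3% were lower by limma, so counts near these shares do not set a list apart. Of 12 neuron markers tested 7 were lower in the knockdown and none was higher, with a median ratio of -1.13. Of 10 markers of astrocytes and radial glia 8 were higher and 1 was lower (Gja1, mean ratio -0.66). Of 12 markers of the oligodendrocyte lineage 5 were higher and none was lower. All 10 pluripotent cell markers were lower, with a median of -2.71. Of the endothelial markers 1 of 7 was higher and 3 were lower, of the fibroblast markers 0 of 8 and 3, of the cardiac and smooth muscle markers 0 of 6 and 3, and of the pericyte markers 1 of 8 and 2. Among dopaminergic neuron markers 3 of 9 were higher and 1 was lower. For choroid plexus the counts were 0 of 5 and 1, and for endoderm 1 of 6 and 1. Of 8 microglia markers 4 were at 0 in most tables, and the 1 that was tested was higher. In bulk RNA, fewer cells of a type and less RNA per cell cannot be told apart, and the part of cell composition in the results below was not tested.

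The first comparison asked which subunits differed between the lines in their mean ratio over the course. The ratios of the 2 libraries of a day were averaged over 9 days, since the study left day 6 out of its pathway analysis as discrepant. By limma, 18 of 53 members (34.0%) were higher in the knockdown, where 26.2% of the 13608 genes tested were, and 5 (9.43%) were lower, against 26.3% of all genes. The median of the members' mean ratios was 0.26, and that of all genes tested was 0.0056. By group, 10 voltage-gated subunits were higher and 4 were lower, 5 of 6 auxiliary subunits were higher, and none of the 6 inward rectifiers passed the test (limma adjusted p from 0.202 for Kcnj8 to 0.805 for Kcnj3). All 3 Kcnd subunits and all 3 Kcnab subunits were higher, but of these only the call of Kcnd2 was kept whichever day was left out. The count of higher members was 11 to 15 with any 1 day left out, lowest without day 1 or day 3. By the exact sign-flip permutation test it was 11. The count of lower members was 8 without day 0, 3 without day 2, 10 or 12 and 3 by the sign-flip test. The shares of all genes called in these settings are not given here, so the changes in count cannot be read as particular to the members.

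The sign of the difference changed over the course. The members' median ratio started at 0.89 (day 0), and the next 4 daily values were 0.60, 0.41, 0.27 and 0.26. From day 8 it took the values 0.45, -0.13, -0.16 and -0.28, while the median of all genes stayed between -0.024 and 0.011. On day 6, which entered no fit, it was -0.22.

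**Figure D1:**
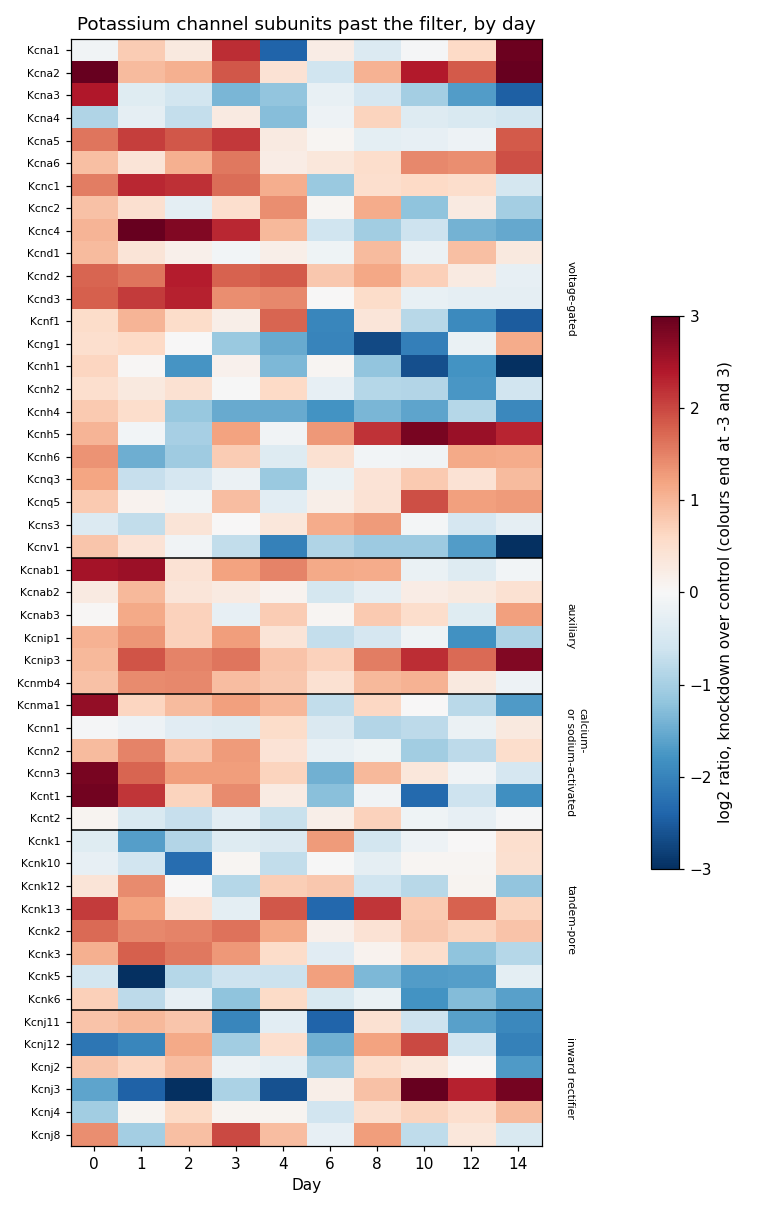
Log2 ratio of the HPRT knockdown over the control (color, from -3 to 3) for 49 of the 53 subunits tested (rows, by role) on each of the 10 days (columns, day of differentiation). Of the 49 ratios shown, 39 were above 0 on day 0 and 21 on day 14.

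The higher group was led by Kcna2 (Gene ID 16490, NCBIM37 chromosome 3, 106904485 to 106909797, plus strand), a delayed rectifier subunit found along axons. Its lowest ratio was 0.43 (day 4), its median 1.83 and its highest 3.66 (day 14), and it was above 0 on all 9 days, while day 6 was at -0.60. The mean was 1.81 ± 1.06 (SD, n = 9 days), or 3.50-fold, with a limma adjusted p of 0.00126. Its relative Kcna6 (16494, chromosome 6, 126658347 to 126690680) lay between 0.21 on day 4 and 1.93 on day 14, with a mean of 1.05 ± 0.59 (limma adjusted p 0.00114). An antisense gene overlaps 39.5% of the exon bases of Kcna6, and without strand their reads cannot be told apart. By contrast Kcna1 (16485), which forms mixed channels with Kcna2, ranged from -2.40 on day 4 to 2.94 on day 14, and its mean of 0.43 ± 1.54 did not pass (limma adjusted p 0.455). Kcna1 was above 0 on 5 days and below 0 on 4.

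Kcnip3 (56461, chromosome 2, 127282234 to 127347830, minus strand) encodes a calcium-binding partner of Kcnd channels, also known as the transcriptional repressor DREAM. The ratio had its lowest value of 0.86 on day 4, a median of 1.60 and its highest value of 2.77 on day 14, and day 6 was also above 0, at 0.69. The mean was 1.67 ± 0.59 (limma adjusted p 0.000120). Of the pore-forming partners, Kcnd2 (16508, chromosome 6, 21165503 to 21679805) was higher by 1.25 ± 0.85 (limma adjusted p 0.00284), with values from -0.24 on day 14 to 2.37 on day 2. Kcnd3 (56543, chromosome 3, 105255248 to 105476920), which carries the A-type current of dopaminergic neurons, was higher by 0.98 ± 1.05 (limma adjusted p 0.0253). The value of Kcnd3 was between 1.40 and 2.31 on days 0 to 4 and between -0.28 and 0.56 on days 8 to 14. Its call was lost without any of days 0, 1, 2, 3 or 4 (limma adjusted p up to 0.0602).

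Kcnc1, a subunit of the fast delayed rectifiers that allow high firing rates, was also higher. Kcnc1 (16502, chromosome 7, 53651867 to 53693745) had a median of 1.09, from -0.53 on day 14 to 2.25 on day 1, and a mean of 1.09 ± 0.91 (limma adjusted p 0.00810).

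Among tandem-pore subunits, the mechanosensitive Kcnk2 (16526, chromosome 1, 191031816 to 191167711) was higher on all 9 days, with a lowest ratio of 0.45 (day 8) and a highest of 1.70 (day 0). The mean was 1.13 ± 0.46 with a limma adjusted p of 0.000243. Kcnk13 (217826, chromosome 12, 101202709 to 101300892) was higher by 1.18 ± 0.84 (limma adjusted p 0.00373), from -0.29 on day 3 to 2.14 on day 8. Day 6 stood far below, at -2.36, and with it the call was lost. The acid-sensitive Kcnk3 (16527) was at 0.54 ± 1.04 and did not pass (limma adjusted p 0.172). Kcnk5 (16529, chromosome 14, 20959280 to 21001004), another acid-sensitive leak subunit, was instead lower on all 9 days, with extremes of -3.30 (day 1) and -0.29 (day 14). Its mean was -1.21 ± 0.93 (limma adjusted p 0.00529), and its day 6 ratio was 1.22.

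Kcnmb4 (58802, chromosome 10, 115854917 to 115910934), the neuronal auxiliary subunit of the large-conductance calcium-activated channel, was higher by 0.85 ± 0.51 (limma adjusted p 0.00172), with values from -0.16 on day 14 to 1.43 on day 2. Antisense genes overlap 20.8% and 10.7% of its exon bases. The pore subunit it binds, Kcnma1 (16531), was at 0.51 ± 1.24 (limma adjusted p 0.272), from -1.69 on day 14 to 2.65 on day 0. Kcnn3 (140493, chromosome 3, 89324086 to 89471683), the small-conductance calcium-activated subunit of dopaminergic neurons, was higher by 0.94 ± 1.005 (limma adjusted p 0.0252). Its ratio passed from 2.84 at day 0 through 0.97 at day 8 to -0.50 at day 14, and the call was lost without day 1, 2 or 3 or with day 6 (limma adjusted p without 1 day up to 0.0597). Kcnab2 (16498), a cytoplasmic partner of Kcna channels, was higher by only 0.30 ± 0.33 (limma adjusted p 0.0413). That call was lost without any of 8 of the 9 days (limma adjusted p up to 0.0799).

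In the lower group, Kcnh1 (16510, chromosome 1, 194014666 to 194334041), a slowly activating voltage-gated subunit, was lower by -1.34 ± 1.49 (limma adjusted p 0.0290), with ratios from -4.11 on day 14 to 0.64 on day 0. That call was lost without day 2, 4, 10 or 12 (limma adjusted p up to 0.0657). Kcnq3 (110862), a subunit of the slow M-type current, was at 0.14 ± 0.80 (limma adjusted p 0.654), and the tables disagreed by 0.107 on its values.

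**Figure D2:**
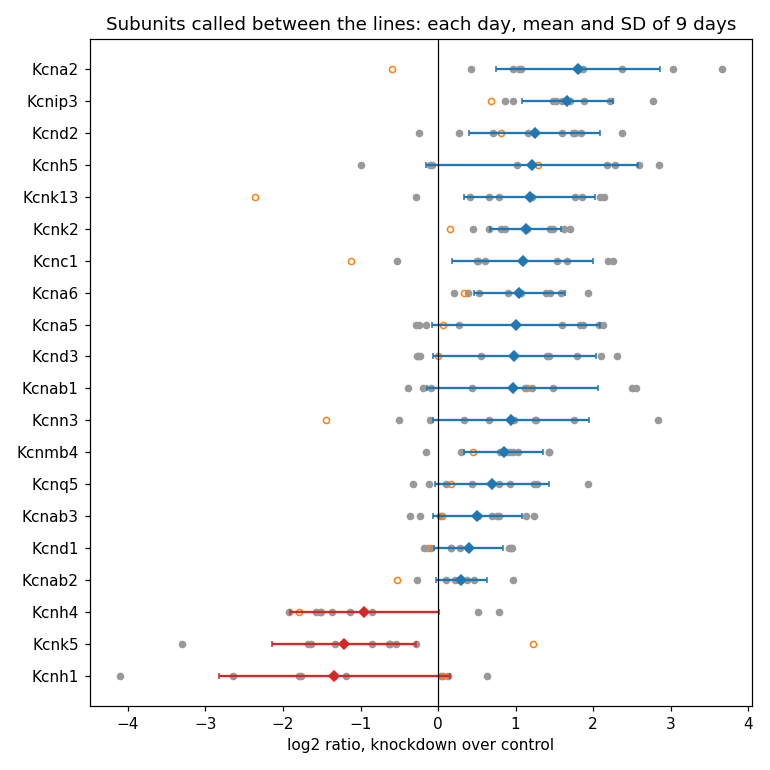
Log2 ratio of the knockdown over the control (horizontal axis) for 20 of the 23 subunits called between the lines (rows). Gray points are the 9 days tested, open orange points day 6, and diamonds with bars the mean and SD over the 9 days. In 5 of the 20 all 9 days lay on the same side of 0, and in 8 of the 20 day 6 lay on the other side from the mean.

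As with Kcnd3, Kcnn3 and Kcnh1 above, other members were called with the same sign on fewer than 8 of 9 days. Kcnab1 was higher by 0.96 ± 1.11 (limma adjusted p 0.0338), a call lost without day 0, 1, 3, 4 or 8 (limma adjusted p up to 0.0743), by the sign-flip test, without the filter and in the unpaired fit. Kcnh5, a relative of Kcnh1, was higher by 1.22 ± 1.37 (limma adjusted p 0.0305), a call lost without day 3, 8, 10, 12 or 14 (up to 0.0699) and by the sign-flip test. The others named in this paragraph fell outside the naming rule and were chosen after their values were seen. Kcna5, a delayed rectifier subunit, was higher by 1.01 ± 1.08 (limma adjusted p 0.0252), a call lost without day 0, 1, 2, 3 or 14 (up to 0.0617). Kcnq5, Kcnab3 and Kcnd1 were higher by 0.70, 0.51 and 0.39 (limma adjusted p 0.0252, 0.0359 and 0.0381), and these calls were lost without 3, 6 and 5 of the 9 days, respectively. Kcnh4 was lower, at -0.95 ± 0.96 (limma adjusted p 0.0194), with 0.78 and 0.52 on days 0 and 1 and values between -1.93 and -0.86 on the other days tested.

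The inward rectifiers did not share a direction. Kcnj8 and Kcnj11 form ATP-sensitive channels of vessels and of neurons and endocrine cells, respectively. Their means were 0.51 ± 1.049 (limma adjusted p 0.202) and -0.37 ± 1.23 (limma adjusted p 0.422). The G protein-gated subunits Kcnj6, Kcnj9 and Kcnj5 lay under the filter, where a library at or below 1 normalized count enters as 0 and ratios are understated. Kcnj6 (16522) ranged from -2.83 on day 12 to 1.87 on day 1, Kcnj9 (16524) from -0.83 on day 10 to 3.50 on day 8, and Kcnj5 (16521) from -3.02 on day 10 to 0.96 on day 14. In the fit without a filter, their means of 0.035, 0.77 and -0.93 did not pass (limma adjusted p 0.977, 0.305 and 0.147).

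Of the 29 members under the filter, 2 were higher and 2 lower in the fit without a filter, and they are named here after their values were seen. In that fit 10.5% of the 3320 genes under the filter were higher and 15.8% were lower. Kcnip2 was higher by 1.14 ± 0.79 (limma adjusted p 0.00607) and Kcnmb1 by 1.90 ± 1.34 (limma adjusted p 0.00684). Kcnn4 was lower, at -1.52 ± 1.60 (limma adjusted p 0.0384). Kcnk9, a tandem-pore subunit that is expressed from the maternal allele in brain, was at -3.88 ± 2.20 (limma adjusted p 0.00236), with 0.79 on day 0 and values between -6.27 and -2.04 on the other 8 days tested. The tables disagreed by 0.520 on the values of Kcnk9, by 0.455 on those of Kcnmb1 and by 0.221 on those of Kcnn4.

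Promoters were listed for 65 member symbols. Promoter sequences are shown for leading members of each direction for which RefSeq lists one. They were taken among the named members called with the same sign on at least 8 of 9 days. Each has 300 bases, from 250 before to 50 after the transcript start (GRCm38.p6, 5′ to 3′, CG dinucleotides in capitals). Kcna2 (chr3:107101317-107101616, plus strand) held 31 CG, Kcnip3 (chr2:127522045-127522344, minus strand, the first of 3 listed) 8 and Kcnk5 (chr14:20181733-20182032, minus strand) 26. The median was 9 over the 87 promoters of members and 7 over all 32851.
Kcna2: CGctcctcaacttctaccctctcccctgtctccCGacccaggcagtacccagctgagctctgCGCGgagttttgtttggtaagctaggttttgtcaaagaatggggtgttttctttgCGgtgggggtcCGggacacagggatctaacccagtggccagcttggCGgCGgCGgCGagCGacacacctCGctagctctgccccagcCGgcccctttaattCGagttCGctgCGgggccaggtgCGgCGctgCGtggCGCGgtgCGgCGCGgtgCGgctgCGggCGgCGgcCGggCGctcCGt
Kcnip3: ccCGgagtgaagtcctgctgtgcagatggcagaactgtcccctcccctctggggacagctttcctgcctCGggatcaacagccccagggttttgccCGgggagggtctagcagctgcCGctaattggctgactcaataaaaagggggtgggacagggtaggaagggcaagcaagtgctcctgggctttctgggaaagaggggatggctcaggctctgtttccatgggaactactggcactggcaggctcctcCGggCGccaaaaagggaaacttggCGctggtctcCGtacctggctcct
Kcnk5: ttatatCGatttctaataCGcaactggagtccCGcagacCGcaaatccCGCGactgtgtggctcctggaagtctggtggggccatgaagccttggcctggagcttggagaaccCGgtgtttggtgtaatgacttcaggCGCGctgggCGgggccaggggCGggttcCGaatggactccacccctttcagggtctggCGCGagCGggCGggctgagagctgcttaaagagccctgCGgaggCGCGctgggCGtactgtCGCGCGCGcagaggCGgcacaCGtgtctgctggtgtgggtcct

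Short motifs were searched on both strands of the promoters, 11 in all. TTCAGCACC, letters of the left part of the site bound by the repressor REST, occurred in 1 of 87 member promoters, that of Kcnh6, and in 0.371% of all promoters. The overlapping string CAGCACCA occurred in 2.3% of member promoters and 2.16% of all. The shorter AGCACC, which lies within both, was in 18.4% and 16.2%. From the right part of the site, GGACAG was in 28.7% and 22.2%. The TATA string TATAAA was found in 4.6% of member promoters and 13.6% of all, and GGGCGG, which Sp1 binds, in 48.3% and 35.7%. The E-box string CACGTG was held by 8.05% of member promoters and 7.15% of all. A second E-box string, CACCTG, was held by 26.4% and 20.2% of them. The last E-box string searched was CATATG, found in 1.15% and 3.91%. The cyclic AMP element TGACGTCA was in 0 of 87 and in 1.79% of all, and the Sox string CTTTGT in 14.9% and 18.7%.

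Time courses within each line were compared next. In the control line 20 of 53 members (37.7%) rose over the days by limma, where 20.4% of all genes did, and 4 (7.55%) fell, where 22.1% did. The median slope was 0.070 log2 units per day over the members and 3.75e-05 over all genes. The rising members included 10 voltage-gated and 4 of 6 calcium- or sodium-activated subunits. In the knockdown line 4 members rose and 5 fell, against 7.6% and 5.53% of all genes, with a median member slope of 0.0088. By limma the knockdown count of 9 was 0 without day 12 and 0 without day 14, where 21 and 17 members had an unadjusted p under 0.05, and 25 with all days. It was 14 without day 0 and 5 without day 2. Of the neuron markers 8 of 12 rose in the control, against 1 rising and 1 falling in the knockdown. Fibroblast markers rose in 6 of 8 cases in the control and endoderm markers in 4 of 6, and their part in these slopes was not tested.

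The steepest rise in the control was that of Kcnj8 (16523, chromosome 6, 142513459 to 142519876), the inward rectifier of vascular ATP-sensitive channels, at 0.30 ± 0.063 per day (SE, limma adjusted p 0.00617). Pericyte and mural cell markers rose in the control in 3 of 8 cases. Kcnip1 (70357), a Kcnd partner, rose by 0.24 ± 0.031 per day (limma adjusted p 0.00103), and Kcnab1 (16497), a Kcna partner, by 0.21 ± 0.044 (limma adjusted p 0.00578). Kcnj11 and Kcnn3 rose by 0.18 and 0.12 per day (limma adjusted p 0.00190 and 0.00280). Falls in the control were those of Kcnj3 (16519), a G protein-gated inward rectifier, with a slope of -0.15 ± 0.032 (limma adjusted p 0.00597), Kcng1 (241794), a silent voltage-gated subunit, at -0.12 ± 0.040 (limma adjusted p 0.0398), Kcnk1 (16525) at -0.085 ± 0.019 (limma adjusted p 0.00812) and Kcnip3 at -0.044 ± 0.012 (limma adjusted p 0.0207). An antisense gene overlaps 31.1% of the exon bases of Kcnj3. The fall of Kcnip3 was lost without day 12 (limma adjusted p 0.0593) and that of Kcnk1 without day 14 (limma adjusted p 0.0514). The fall of Kcng1 was lost without day 2, 3, 10, 12 or 14 (limma adjusted p up to 0.199).

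In the knockdown line Kcnj3 rose by 0.28 ± 0.071 per day (limma adjusted p 0.0365), Kcnh5 (238271) by 0.22 ± 0.041 (limma adjusted p 0.0160), Kcnj8 by 0.21 ± 0.040 (limma adjusted p 0.0170) and Kcnk2 by 0.064 ± 0.016 (limma adjusted p 0.0347). Kcnc4 (99738) had a slope of -0.20 ± 0.053 (limma adjusted p 0.0397), Kcnf1 (382571) of -0.18 ± 0.039 (limma adjusted p 0.0253), Kcnd2 of -0.13 ± 0.026 (limma adjusted p 0.0206) and Kcnh2 (16511) of -0.11 ± 0.028 (limma adjusted p 0.0359). The fifth falling member was Kcnmb4, at -0.094 ± 0.017 (limma adjusted p 0.0158). Kcnh2 forms the rapid delayed rectifier known from the heart. Each of these 9 calls was lost without day 12 and without day 14, with a limma adjusted p of up to 0.140.

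The slope of the daily ratio tests the difference in trend itself. It fell for 17 of 53 members (32.1%), where 6.61% of all genes did, and rose for 2 (3.77%), against 7.43%. All 17 members had a ratio above 0 on day 0, and 16 of them were below 0 on day 14. The choice by a falling slope itself favors such first and last values. Of all 53 members, 42 were above 0 on day 0 and 22 on day 14. Of the 20 members that rose in the control, 12 had a falling ratio, against 23.2% of all 2781 genes that rose there. The ratio contains the control value, so the choice of control risers itself favors a falling ratio. Without day 12 the count of differing trends was 11 in place of 19, with 10 falling and 1 rising. Without day 0 it was 15, with 11 falling and 4 rising. Of the neuron markers, 4 of 12 had a falling ratio and none a rising ratio, and of the oligodendrocyte lineage markers 7 of 12 had a rising ratio.

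**Figure D3:**
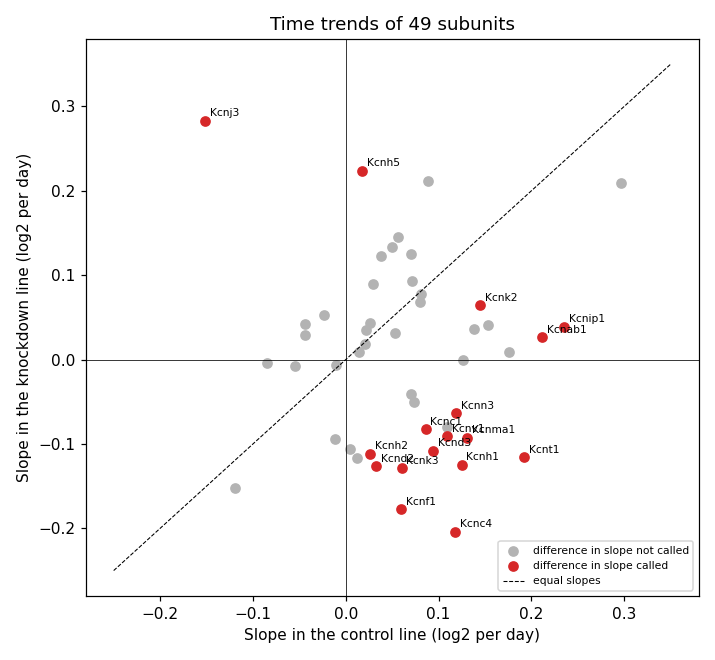
Slope in the control line (horizontal axis, log2 per day) against slope in the knockdown line (vertical axis, log2 per day) for 49 of the 53 subunits tested, each point 1 gene. The dashed line marks equal slopes, and red points are 17 of the 19 members whose slope of the ratio passed the test: 15 lie below the line and 2, Kcnj3 and Kcnh5, above it.

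Kcnc4, a voltage-gated subunit of the family of Kcnc1, had the steepest fall of the ratio at -0.32 ± 0.054 per day (limma adjusted p 0.0112). Days 1 and 2 held ratios of 2.98 and 2.79, against -1.04 and -1.53 for days 8 and 14. Kcnt1 (227632, chromosome 2, 25719315 to 25773793), the sodium-activated subunit, followed at -0.30 ± 0.051 (limma adjusted p 0.0109), from 2.89 on day 0 to -1.85 on day 14. Kcnh1 had a slope of -0.24 ± 0.053 per day (limma adjusted p 0.0218), and its call was lost without day 0 or 14 (limma adjusted p up to 0.101). For Kcnd3 the slope was -0.20 ± 0.022 (limma adjusted p 0.00321), and the libraries converged: the joined value of Kcnd3, relative to the control of day 0, was 1.79 in the knockdown and 0 in the control on day 0, and 0.95 and 1.27 on day 14.

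Kcnma1 and Kcnn3 had slopes of -0.22 ± 0.037 (limma adjusted p 0.0111) and -0.18 ± 0.029 (limma adjusted p 0.0102). On the days tested their ratios crossed 0 between day 10 and day 12. The day 6 ratios, left out of the fits, were already below 0, at -0.74 and -1.445. The call of Kcnma1 was lost without day 14 (limma adjusted p 0.0502) and those of Kcnn3 and Kcnc1 with day 6 kept. Kcnc1, Kcnd2 and Kcnk3 had slopes of -0.16, -0.15 and -0.18 (limma adjusted p 0.00889, 0.00767 and 0.0106). In the other direction, Kcnj3 (chromosome 2, 55288381 to 55450556) rose by 0.46 ± 0.076 per day (limma adjusted p 0.0101). Its ratio was between -3.90 and -0.96 on days 0 to 4 and between 0.89 and 3.16 on days 8 to 14, so that the mean over 9 days, -0.25 ± 2.63, showed neither (limma adjusted p 0.805). The tables disagreed by 0.210 on its values. Kcnh5 (chromosome 12, 75998204 to 76278319) rose by 0.21 ± 0.055 (limma adjusted p 0.0367), with 2.17 to 2.86 on days 8 to 14, but the call was lost without day 1, 4, 8, 10, 12 or 14 (limma adjusted p up to 0.0992).

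**Figure D4:**
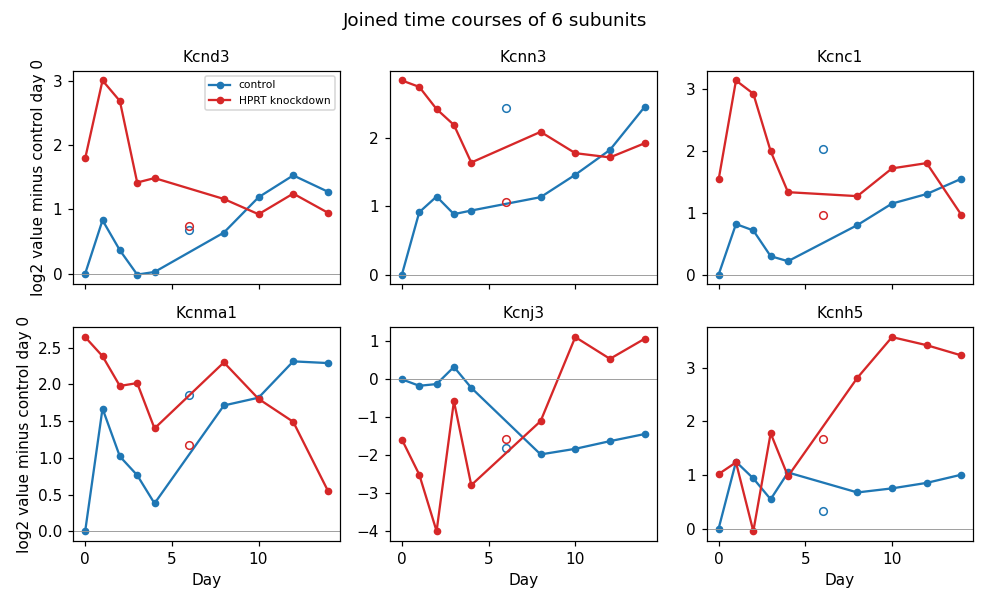
Joined log2 values of 6 subunits, relative to the control library of day 0 (vertical axis), against day (horizontal axis), in the control (blue) and the HPRT knockdown (red), with 1 library per point. Open points are day 6, left out of the fits. Kcnd3, Kcnn3, Kcnc1 and Kcnma1 started higher in the knockdown, by 1.79, 2.84, 1.53 and 2.65, and ended lower. Kcnj3 ended at 1.07 in the knockdown and -1.44 in the control, and Kcnh5 at 3.23 and 1.004; vertical scales differ between panels.

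Other genes of potassium handling were counted from lists written with earlier results known. Of all genes tested, 26.2% were higher in the knockdown and 26.3% were lower, and 20.4% rose in the control. Of 14 tested genes of potassium transport 6 were higher in the knockdown and 1 was lower, with a median ratio of 0.35. The glial sodium pump subunit Atp1b2 was higher by 2.19 ± 0.57, on all 9 days (limma adjusted p 3.13e-05). Of 18 tested partners of potassium channels 4 were higher and 4 lower. The higher ones were Adam22, at 0.79 ± 0.21 on all 9 days (limma adjusted p 8.32e-05), Dlg4 at 0.70, Sgk1 at 0.67 and Caml at 0.27 (limma adjusted p 0.00643, 0.0444 and 0.0239). Ank3 and Fgf13 were lower on all 9 days, with means of -1.03 and -1.05 (limma adjusted p 0.000418 and 0.00434). Cntn2, which holds Kcna channels beside the node of Ranvier, was lower by -2.93 ± 1.74 (limma adjusted p 0.00127), and Abcc9, the sulfonylurea receptor that pairs with Kcnj8, by -2.23 ± 1.73 (limma adjusted p 0.00524). In the control 12 of these 18 partners rose, and the ratio fell over the days for 6, where it fell for 6.61% of all genes. Of the HCN channels, which carry the pacemaker current, 1 of 4 was lower, Hcn4 at -1.63 ± 1.78 (limma adjusted p 0.0261), and 3 of 4 rose in the control. Of REST and its cofactors 5 of 9 were lower and 1 was higher. Rest itself, the repressor of many neuronal channel genes, was lower by -0.61 ± 0.48 on 8 of 9 days (limma adjusted p 0.00694).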

How the data were processed

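RNA of the control and HPRT knockdown lines was sequenced in 20 libraries, 10 per line. Per the study's methods, the authors aligned reads with ELAND in CASAVA 1.8.2 against NCBI37/mm9, and took gene counts and their DESeq normalization from Avadis NGS. The authors deposited 28 tables of 2 libraries each in log2 units, with the mean of the pair subtracted, so that totals per library and counting error were unknown. A value at or below 1 normalized count enters as 0. The sources used here do not state whether counting used strand.

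Because single-precision numbers round more coarsely as the log2 count grows, a typical count could be read from the rounding step. Genes with a median step matching a log2 count of at least 4 were tested (13608 of 37561), and this filter and the fits were tested on simulated data. Around neighboring days, 8 of 9 loops of 4 tables closed for 90.9% to 92.6% of tested genes. The loop of days 3 and 4 closed for 0.426%. Small whole counts decoded from other tables predicted the knockdown table of those days for 182 of 182 genes and the control table for 79, so the control step was routed through the knockdown tables. Attempts to recover read counts for all members gave no unique scale and were not used.

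Ratios of 9 days and slopes on day were fitted with limma 3.58.1 in R 4.3.3, with Benjamini-Hochberg adjustment over all genes tested and a threshold of 0.05. Joined values add up separately normalized tables. The named members were the 10 highest and 10 lowest mean ratios among those called with the same sign on 8 of 9 days (fewer qualified in the lower direction), the 4 steepest called slopes in each direction, and others chosen by role. Some genes are not reported here, and counts include them. Members and lists were chosen with earlier results of these data known. Gene coordinates are from GENCODE vM1 on NCBIM37 and promoters from RefSeq.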

Additional observations from a re-analysis of the deposited data

Results flagged for a closer look

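The slope of the daily ratio differed between the lines for 16 of the 33 named members by limma. Some members were named for such a slope, so this share is partly set by the naming. Of all 53 members tested 19 were called, where the ratio rose for 7.43% and fell for 6.61% of all genes. The falling slopes, in log2 units per day, were Kcnc4 -0.32, Kcnt1 -0.30, Kcnh1 -0.24, Kcnf1 -0.23, Kcnma1 -0.22, Kcnd3 -0.20, Kcnip1 -0.19, Kcnk3 -0.18, Kcnab1 -0.18, Kcnn3 -0.18, Kcnc1 -0.16, Kcnd2 -0.15, Kcnh2 -0.13 and Kcnk2 -0.074. The rising slopes were Kcnj3 0.46 and Kcnh5 0.21. Leaving out single days ended the calls of Kcnk2 (day 0, 1, 2, 3, 10 or 12, limma adjusted p up to 0.0908), Kcnh5 (day 1, 4, 8, 10, 12 or 14, up to 0.0992), Kcnab1 (day 0, 1, 10, 12 or 14, up to 0.0799), Kcnh2 (day 0, 10 or 12, up to 0.0690), Kcnf1 (day 12 or 14, up to 0.0809), Kcnh1 (day 0 or 14, up to 0.101) and Kcnma1 (day 14, 0.0502). With day 6 kept, those of Kcnk2, Kcnn3 and Kcnc1 were lost, and with slopes on log2(day + 1) those of Kcnf1 and Kcnh5, the latter also without the filter. No day stood apart from the other days of a named member by Dixon's criterion in the 32 that could be examined, and no conclusion is drawn from that count.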

How the results depend on the processing

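With 1 day left out, the members higher in the knockdown numbered 11 to 15, those lower 3 to 8, control trends 19 to 25, knockdown trends 0 to 14 and differing trends 11 to 19. The exact sign-flip permutation test gave 11 higher and 3 lower. At a typical log2 count of at least 8, where only 5 members were tested, 5 were higher, 0 lower, and 3 had a trend in the control, 3 in the knockdown and 3 in the difference. The shares of the 8248 genes past this filter that were called are not given here, so these counts cannot be set against them. On log2(day + 1) the knockdown trends numbered 0 by limma, with 20 members at an unadjusted p under 0.05. The cause of the other moves was not tested. Of 56 named calls, 29 were kept without each single day and 23 in every setting run. Without the replicate block, in an unpaired fit, 13 were higher and 6 lower. Libraries of a day deviated together with r between -0.027 and 0.41 across genes, over 0.1 on 8 of 9 days, and 6 of 9 correlated best with their own day.

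No called value changed sign. Among values that did not pass, the sign changed on log2(day + 1) for the knockdown slope of Kcnj11 (-0.083) and the ratio slope of Kcnk13 (-0.055, and -0.000954 with daily medians taken off). Leaving out 1 day spanned 0 for the mean ratios of Kcnf1 (-0.32 to 0.21), Kcnip1 (-0.000106 to 0.39), Kcnj3 (-0.68 to 0.21) and Kcnt1 (-0.055 to 0.60). It did so for the control slopes of Kcna2 (-0.00139 to 0.073), Kcnd2 (-0.00133 to 0.055), Kcnh5 (-0.00886 to 0.035), Kcnk13 (-0.049 to 0.044) and Kcnmb4 (-0.036 to 0.0045). Knockdown slopes were those of Kcnip3 (-0.0076 to 0.047), Kcnj11 (-0.024 to 0.039), Kcnk1 (-0.014 to 0.0026), Kcnk13 (-0.019 to 0.020) and Kcnk5 (-0.00786 to 0.057). Ratio slopes were those of Kcna1 (-0.020 to 0.13), Kcnab2 (-0.034 to 0.0032), Kcng1 (-0.15 to 0.011), Kcnk13 (-0.024 to 0.037) and Kcnk5 (-0.039 to 0.054).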
